A study of Mus musculus with 10 samples.

Results

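Cellular senescence is a lasting exit from the cell cycle that can follow radiation damage, and 9 genes commonly used to describe it were followed here in the distal colorectum of Pdgfc knockout and wild-type mice. They are the INK4 inhibitors Cdkn2a, Cdkn2b and Cdkn2c, the KIP inhibitors Cdkn1b and Cdkn1c, the lamin genes Lmnb1 and Lmna, the lysosomal galactosidase gene Glb1 and the retinoblastoma gene Rb1. They were chosen by name, as the genes whose symbol in the platform annotation was on this list, with earlier results of these data known. The 9 genes had 16 of the 45101 probe sets on the array, and they were 9 of 18193 named genes. Each had at least 1 probe set.

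Total RNA of 10 C57BL/6J mice was measured, 1 Affymetrix array per mouse. The groups were irradiated Pdgfc-/- (knockout, n = 3), irradiated Pdgfc+/+ (wild type, n = 3), unirradiated Pdgfc-/- (n = 2) and unirradiated Pdgfc+/+ (n = 2). Irradiated mice had received 25 Gy of local γ-rays at 2.14 Gy/min under chloral hydrate anaesthesia, and tissue about 1 cm above the anus was taken 8 weeks later. The replicates are called biological in the labels. The number of arrays limits the precision, and the age of the mice and the way the Pdgfc allele was made are not given in the sources used here.

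As background, INK4 proteins bind the cyclin D partners CDK4 and CDK6 and keep them from phosphorylating RB, and KIP proteins act mainly on cyclin-bound CDK2. Unphosphorylated RB holds E2F transcription factors in check, so that genes of DNA replication stay off. In cultured senescent cells CDKN2A mRNA is typically high and LMNB1 mRNA is typically low, and the galactosidase encoded by GLB1 is the source of the β-galactosidase staining used as a senescence assay. In the colon, inhibitors of this kind are also expressed by epithelial cells that have left the crypt base and differentiate.

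Values are log2 MAS5 signals, and the brightest probe set of a gene stood for it. A probe set was compared with itself between groups, since signals of different probe sets are not on a common scale. Array medians lay between 6.64 and 7.18. Of the 9 genes, 8 lay above the array median on all 10 arrays and were tested. Cdkn2a lay below it on all 10 and was not part of the test over genes. Differences were tested with limma over 12568 genes, with a Benjamini-Hochberg adjusted p of 0.05 as the threshold, and ± denotes the SE of a difference unless stated otherwise.

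Several facts of the whole series touch every comparison below. On its brightest probe set Pdgfc was lower by 1.82 ± 0.32 log2 units in irradiated knockout than in irradiated wild type and by 1.23 ± 0.40 in unirradiated knockout than in unirradiated wild type (limma adjusted p = 0.69 and 0.16 over all genes), and knockout and wild-type arrays of a condition did not overlap. Where this probe set lies relative to the deleted part is not given in the labels. By Xist and Kdm5d, replicate 1 of irradiated knockout and all 3 irradiated wild-type arrays had the female pattern, and the other 6 arrays looked male. Sex and irradiation hence cannot be told apart in wild type. Among irradiated arrays, those of wild type all looked female and replicates 2 and 3 of knockout looked male. Sex was thus also largely confounded with genotype after irradiation, and it enters the genotype difference of the irradiation effect. As a sign of RNA quality, the log2 signal of Gapdh at its 3′ minus its 5′ control was -0.47 to -0.35 in irradiated and -0.23 to -0.22 in unirradiated knockout, and -0.54 to -0.41 in irradiated and -0.32 to 0.02 in unirradiated wild type. That of Actb was 0.49 to 0.58 in irradiated and 0.63 to 0.65 in unirradiated knockout. In wild type Actb overlapped, at 0.44 to 0.58 on irradiated and 0.35 to 0.66 on unirradiated arrays. The part of RNA quality in the results below was not tested.

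The INK4 genes Cdkn2a and Cdkn2b are neighbours on mouse chromosome 4, and Cdkn2c lies farther along that chromosome. RefSeq (GRCm38.p6) gives Cdkn2a 2 starts, which is shown here because its single probe set was used as 1 value for the whole gene. The starts precede different first exons, and the gene encodes the INK4A and ARF proteins in different reading frames. The windows run from 250 bases before to 50 after the start, all on the minus strand. Capitals mark matches to the cell cycle homology region letters TTTGAA on either strand.

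Cdkn2a, upstream start, chr4:89294570-89294869: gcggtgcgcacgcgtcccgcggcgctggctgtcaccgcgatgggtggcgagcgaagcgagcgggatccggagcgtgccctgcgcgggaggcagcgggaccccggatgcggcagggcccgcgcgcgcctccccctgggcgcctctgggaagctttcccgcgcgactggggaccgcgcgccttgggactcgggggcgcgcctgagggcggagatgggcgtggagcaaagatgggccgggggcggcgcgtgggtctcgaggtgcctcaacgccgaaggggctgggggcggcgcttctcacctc
Cdkn2a, downstream start, chr4:89282143-89282442: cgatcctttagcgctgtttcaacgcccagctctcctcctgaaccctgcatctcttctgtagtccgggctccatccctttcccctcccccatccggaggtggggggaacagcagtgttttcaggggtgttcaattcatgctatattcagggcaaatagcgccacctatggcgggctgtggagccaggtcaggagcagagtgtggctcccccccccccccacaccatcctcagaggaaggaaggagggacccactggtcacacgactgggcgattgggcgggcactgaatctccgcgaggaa
Cdkn2b, chr4:89310983-89311282: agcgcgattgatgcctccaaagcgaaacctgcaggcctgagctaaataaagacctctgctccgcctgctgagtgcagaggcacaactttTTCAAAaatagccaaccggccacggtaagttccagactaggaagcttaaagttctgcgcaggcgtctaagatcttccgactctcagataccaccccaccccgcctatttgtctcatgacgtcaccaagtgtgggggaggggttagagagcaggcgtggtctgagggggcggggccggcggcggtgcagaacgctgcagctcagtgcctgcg
Cdkn2c, upstream start, chr4:109666707-109667006: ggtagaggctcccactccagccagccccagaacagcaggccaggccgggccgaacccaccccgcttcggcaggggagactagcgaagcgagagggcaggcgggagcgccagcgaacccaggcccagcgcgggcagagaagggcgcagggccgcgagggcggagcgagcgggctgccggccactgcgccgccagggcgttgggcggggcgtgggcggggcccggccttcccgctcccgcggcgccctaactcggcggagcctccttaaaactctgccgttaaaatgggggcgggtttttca

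Windows were at hand for 6 of the 9 genes, 9 windows in all. The letters TTTGAA or their reverse TTCAAA were in 1 of these 9, that of Cdkn2b, and in 17.9% of 32851 windows of the same length. The E2F-type letters TTTCGCGC (reverse GCGCGAAA) and TTTGGCGC (reverse GCGCCAAA) were in none of the 9, and in 0.323% and 0.514% of all windows. Matches on the 2 strands could share bases, and a missing match says only that the letters are not in the window. Other spellings of E2F-type letters were not searched, so the windows could hold them. The G and C content was 77.0% and 60.3% in the upstream and downstream Cdkn2a windows, 73.3% and 44.0% in those of Cdkn2c and 57.7% in that of Cdkn2b, against a median of 52.7% over all windows.

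The first question was what these genes did 8 weeks after irradiation. In knockout 0 of the 8 genes tested passed the threshold, where 23.5% of all genes did (14% higher and 9.5% lower). In wild type 2 of 8 rose, Cdkn2c and Cdkn1c, and 0 fell, where 24.1% of all genes passed, 15.8% higher and 8.34% lower. In the fit over every probe set, 0 of the 16 passed in knockout and 1 of 16, that of Cdkn2c, in wild type, where 9.8% and 9.71% of all probe sets did. The 2 of 8 in wild type is therefore close to the share of all genes that changed. The median log2 difference of the 8 genes was -0.20 in knockout and -0.02 in wild type, against 0.01 and 0.07 over all genes tested.

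**Figure D1:**
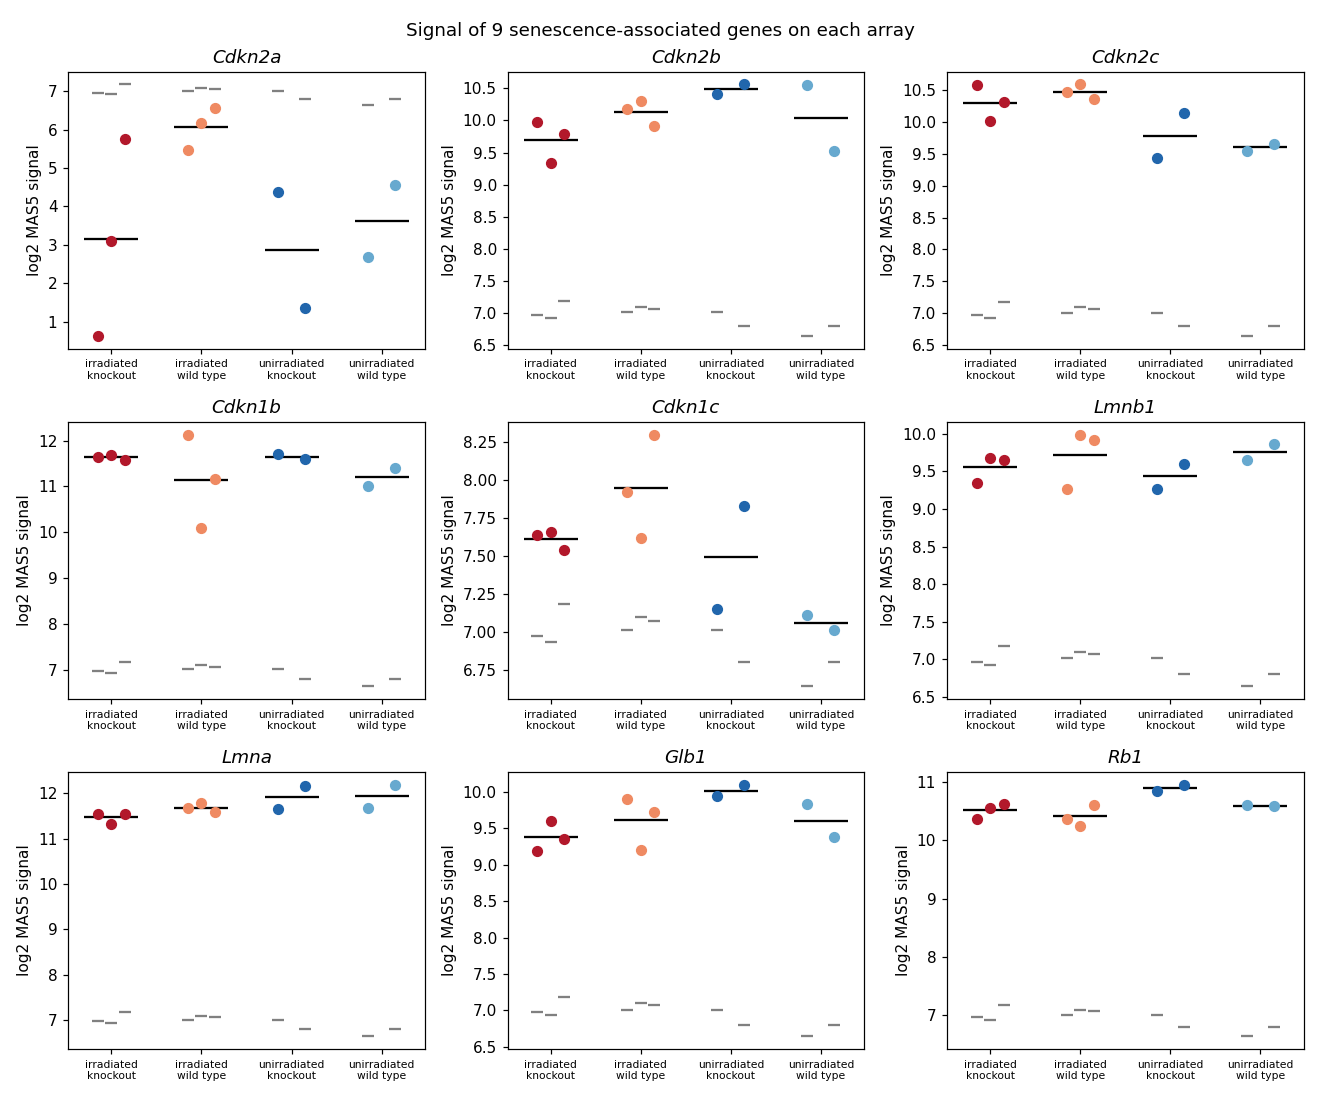
Log2 MAS5 signal (vertical axis) of the probe set that stands for each of 9 genes, by group; each point is 1 array, the black bar is the group mean and grey ticks are the array medians. Cdkn2a lies below the array median on every array, and the irradiated wild-type arrays lie above the unirradiated ones for Cdkn2c and Cdkn1c.

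Cdkn2a, the INK4 gene most often used as a senescence marker, was dim on every array. Its log2 signal was 0.62, 3.09 and 5.77 in irradiated knockout, against 4.38 and 1.35 in unirradiated knockout. In wild type it was 5.47, 6.18 and 6.57 on irradiated arrays, against 2.69 and 4.55 on unirradiated ones. The knockout groups overlapped and the wild-type groups did not, but all 10 values lay below the array medians, between percentile 1.4 and 43.3 of their array, where MAS5 values are imprecise. In the fit over all 45037 probe sets that are not controls, the difference was 0.29 ± 1.38 in knockout and 2.45 ± 1.38 in wild type (limma adjusted p = 0.93 and 0.33). The 95% intervals, -2.76 to 3.34 and -0.59 to 5.50, show that this probe set could not resolve a change of several log2 units. The wild-type value was 1.52 without replicate 1 of unirradiated wild type, 3.39 without replicate 2, and 1.5 with a pseudocount of 16.

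Cdkn2b encodes an INK4 inhibitor that TGF-beta induces in epithelial cells. Its log2 signal was 9.98, 9.33 and 9.79 in irradiated knockout, against 10.41 and 10.56 in unirradiated knockout. All 3 irradiated knockout arrays lay below both unirradiated ones. The difference of -0.79 ± 0.29 did not pass the threshold (limma adjusted p = 0.077), and it passed where either unirradiated wild-type array was left out (adjusted p = 0.028 for each) or only the knockout arrays were fitted (adjusted p = 0.048). In wild type the values were 10.18, 10.30 and 9.91 on irradiated arrays, against 10.55 and 9.53 on unirradiated ones. The unirradiated pair spanned all irradiated values, and the difference was 0.08 ± 0.29 (adjusted p = 0.87).

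Cdkn2c encodes an INK4 inhibitor expressed in many dividing and differentiating cells. In wild type its log2 signal was 10.47, 10.59 and 10.36 on irradiated arrays, against 9.55 and 9.66 on unirradiated ones. The groups did not overlap, and Cdkn2c rose by 0.87 ± 0.23 log2 units, a 1.83-fold higher signal (limma adjusted p = 0.022). The call was lost without replicate 1 of unirradiated wild type (0.81, adjusted p = 0.12), replicate 2 of unirradiated wild type (0.92, adjusted p = 0.066) or irradiated wild-type replicate 2 (0.81, adjusted p = 0.069). In knockout the values were 10.58, 10.01 and 10.32 on irradiated arrays, against 9.43 and 10.14 on unirradiated ones. They overlapped, the difference was 0.52 ± 0.23 (adjusted p = 0.12), and without replicate 2 of unirradiated knockout it was 0.88 and passed (adjusted p = 0.049), while without replicate 1 it was 0.17 (adjusted p = 0.68). The genotype difference of the irradiation effect was -0.35 ± 0.32 (adjusted p = 0.75), so the call in wild type alone does not show a difference between genotypes.

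Cdkn1b encodes a KIP inhibitor whose protein level is set mostly by degradation. On the brighter probe set its log2 signal was 11.65, 11.69 and 11.57 in irradiated knockout, against 11.70 and 11.60 in unirradiated knockout. The knockout groups overlapped closely. In wild type it was 12.13, 10.09 and 11.17 on irradiated arrays, against 11.01 and 11.40 on unirradiated ones, so that the irradiated arrays lay on both sides of the unirradiated pair. The differences were -0.02 ± 0.44 in knockout and -0.07 ± 0.44 in wild type (limma adjusted p = 0.98 and 0.92), with 95% intervals of -1.01 to 0.98 and -1.07 to 0.92. The SEs of the brighter probe set came from a spread pooled over all groups. The SDs were 0.06 and 0.07 in irradiated and unirradiated knockout, against 1.02 and 0.28 in irradiated and unirradiated wild type. The knockout interval thus does not reflect the knockout arrays alone. The dimmer probe set did not show the wide spread of irradiated wild type, where it read 7.50, 7.26 and 7.74. Its differences were -0.34 ± 0.30 in knockout and 0.54 ± 0.30 in wild type (adjusted p = 0.56 and 0.33 over all probe sets), and -0.88 ± 0.43 between them (adjusted p = 0.61). The estimates of the probe sets thus differed, but their 95% intervals overlapped, and no test compared them.

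Cdkn1c encodes a KIP inhibitor that is imprinted and is expressed from the maternal allele. In wild type its log2 signal was 7.92, 7.62 and 8.30 on irradiated arrays, against 7.11 and 7.01 on unirradiated ones. The groups did not overlap, and Cdkn1c rose by 0.89 ± 0.28, a 1.85-fold higher signal (limma adjusted p = 0.046). The gene lay only a little above the array medians, and after quantile normalization the difference was 0.56 and did not pass (adjusted p = 0.22). In knockout it was 7.64, 7.66 and 7.54 on irradiated arrays, against 7.15 and 7.83 on unirradiated ones, so that the groups overlapped. The knockout difference was 0.13 ± 0.28 (adjusted p = 0.77), and the genotype difference of the effect was -0.76 ± 0.40 (adjusted p = 0.55). Leaving out replicate 1 or 2 of unirradiated wild type ended the wild-type call (adjusted p = 0.14 for each), as did leaving out replicate 1 or 3 of irradiated wild type (0.084 and 0.13). It was also lost, at a difference of 0.89, without any 1 of the irradiated knockout arrays (adjusted p = 0.050 to 0.064).

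**Figure D2:**
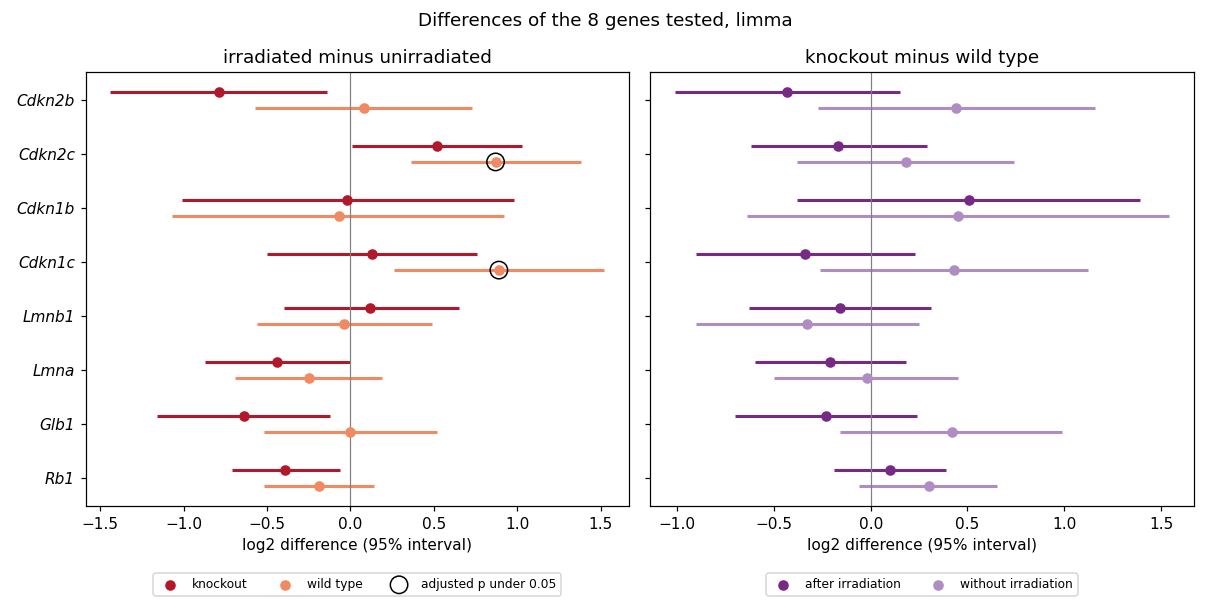
Log2 differences (horizontal axis) of the 8 genes tested, with 95% intervals, for irradiated minus unirradiated (left, knockout above wild type) and knockout minus wild type (right, after irradiation above without). Circles mark an adjusted p under 0.05, which Cdkn2c at 0.87 and Cdkn1c at 0.89 reached in wild type and no other difference did.

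Lmnb1 encodes lamin B1, a permanently farnesylated protein of the nuclear lamina. On its brighter probe set the log2 signal was 9.35, 9.68 and 9.65 in irradiated knockout, against 9.27 and 9.60 in unirradiated knockout. In wild type it was 9.26, 9.99 and 9.92 on irradiated arrays, against 9.65 and 9.87 on unirradiated ones. The groups overlapped in both genotypes, with differences of 0.12 ± 0.23 in knockout and -0.04 ± 0.23 in wild type (limma adjusted p = 0.74 and 0.92). The 95% intervals on this probe set were -0.40 to 0.65 and -0.56 to 0.49. The dimmer probe set gave a larger estimate in knockout, where it read 7.80, 7.84 and 7.86 on irradiated arrays, against 6.96 and 7.25 on unirradiated ones. There it was higher on all irradiated arrays, by 0.73 ± 0.30, but did not pass over all probe sets (adjusted p = 0.16).

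Lmna encodes the A-type lamins, which mark differentiated cells and scale with tissue stiffness. On the brightest of its 5 probe sets the log2 signal was 11.54, 11.33 and 11.54 in irradiated knockout, against 11.65 and 12.17 in unirradiated knockout. It was 11.68, 11.79 and 11.58 in irradiated wild type, against 11.68 and 12.19 in unirradiated wild type. The knockout groups did not overlap and the wild-type groups did, with differences of -0.44 ± 0.19 and -0.25 ± 0.19 (limma adjusted p = 0.13 and 0.38). The knockout value was -0.70 without replicate 1 of unirradiated knockout and -0.17 without replicate 2 (adjusted p = 0.081 and 0.64). Of the 5 probe sets, 4 lay above the array median on all arrays, and all 4 had lower means on irradiated arrays in both genotypes, by -0.61 to -0.28 in knockout and -0.43 to -0.15 in wild type. The 5th lay below the array median on every array, with differences of 0.09 ± 0.82 and 0.32 ± 0.82. None of the 5 passed over all probe sets (smallest adjusted p = 0.067, in knockout), and these probe sets measure the same transcripts, so they are not independent.

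**Figure D3:**
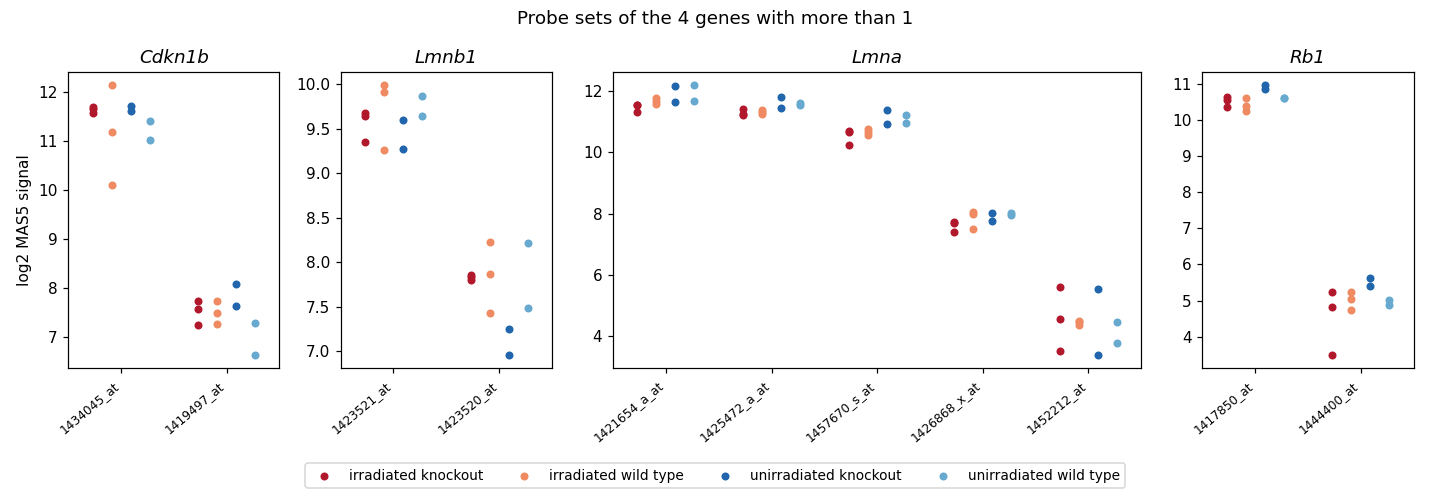
Log2 MAS5 signal (vertical axis) on each probe set of Cdkn1b, Lmnb1, Lmna and Rb1 (horizontal axis), with 1 point per array coloured by group. The dimmer Lmnb1 probe set is higher on irradiated than on unirradiated knockout arrays, and the brighter one is not.

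Glb1 encodes lysosomal β-galactosidase. Its log2 signal was 9.19, 9.60 and 9.35 in irradiated knockout, against 9.94 and 10.10 in unirradiated knockout. All 3 irradiated knockout arrays lay below both unirradiated ones, with a difference of -0.64 ± 0.23 that did not pass (limma adjusted p = 0.072) and that passed with replicate 2 of irradiated knockout left out (-0.75, adjusted p = 0.049) or with replicate 2 of irradiated wild type left out (-0.64, adjusted p = 0.047). In wild type it was 9.90, 9.21 and 9.72 on irradiated arrays, against 9.83 and 9.38 on unirradiated ones. These overlapped, and the difference was 0.00 ± 0.23 with a 95% interval of -0.52 to 0.52 (adjusted p = 1.0). A higher Glb1 signal after irradiation was thus not detected in either genotype.

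Rb1, whose protein restrains E2F factors, had a log2 signal of 10.36, 10.55 and 10.62 in irradiated knockout, against 10.84 and 10.95 in unirradiated knockout. In wild type it was 10.37, 10.25 and 10.61 on irradiated arrays, against 10.60 and 10.59 on unirradiated ones. The knockout groups did not overlap and the wild-type groups did, with differences of -0.39 ± 0.15 and -0.19 ± 0.15 (limma adjusted p = 0.080 and 0.38). The other Rb1 probe set lay below the array median on all 10 arrays and is not read further.

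In irradiated against unirradiated knockout, Cdkn2b, Lmna, Glb1 and Rb1 thus had lower, non-overlapping groups, 4 of the 8 genes, where 25.6% of all genes tested did so, and 0 of 8 were higher without overlap, where 28.4% of all genes were. In wild type 2 of 8 were higher and 0 lower without overlap, where 30.8% and 22.8% of all genes were. An unadjusted limma p under 0.05 was reached by 5 of 8 genes in knockout and 2 of 8 in wild type, where 37.7% of all genes did in each. On the 6 arrays with the male pattern, which hold 2 of the irradiated and both unirradiated knockout arrays, the knockout differences were -0.93 ± 0.33 for Cdkn2b, -0.55 ± 0.23 for Glb1, -0.47 ± 0.25 for Lmna and -0.32 ± 0.17 for Rb1. Those of Cdkn2c and Lmnb1 were 0.38 ± 0.26 and 0.23 ± 0.21, and none of the 8 passed (smallest adjusted p = 0.11).

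The second question was whether Pdgfc loss changed these genes. After irradiation 0 of the 8 genes passed between knockout and wild type, as did 0% of all 12568 genes. Sex by pattern was largely confounded with genotype in this comparison. An unadjusted limma p under 0.05 was reached by 0 of the 8 and by 3.98% of all genes. The differences, knockout minus wild type, ran from -0.43 ± 0.26 for Cdkn2b to 0.51 ± 0.40 for Cdkn1b. Lmna alone of the 8 had non-overlapping groups, lower in knockout, where 4.04% of all genes did and 4.38% were higher. This held on its brightest probe set only. On its other probe sets the groups overlapped, with a difference of -0.03 ± 0.13 on the next brightest. Between Cdkn2b and Cdkn1b lay Cdkn1c at -0.34 ± 0.25, Glb1 at -0.23 ± 0.21, Lmna at -0.21 ± 0.17, Cdkn2c at -0.17 ± 0.20, Lmnb1 at -0.16 ± 0.21 and Rb1 at 0.10 ± 0.13. All 8 of the 95% intervals include 0, and the widest, that of Cdkn1b, ran from -0.38 to 1.39. For Cdkn2a, below the array median throughout, the knockout had the lower mean by -2.91 ± 1.24 (95% interval -5.64 to -0.19, adjusted p = 1.0 over all probe sets), with the groups overlapping. That value was -1.64 without replicate 1 and -4.22 without replicate 3 of irradiated knockout, and -1.43 with a pseudocount of 16.

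Without irradiation 0 of 8 genes passed, where 1.23% of all genes did (0.422% higher and 0.804% lower in knockout), and 0 of 16 probe sets, where 0.52% of all did. An unadjusted limma p under 0.05 was reached by 0 of 8 and by 16.6% of all genes. The knockout arrays lay above both wild-type arrays for Cdkn1b, Cdkn1c, Glb1 and Rb1, 4 of 8 genes, where 28.9% of all genes did. The differences were 0.45 ± 0.49, 0.43 ± 0.31, 0.42 ± 0.25 and 0.30 ± 0.16, with adjusted p from 0.38 for Rb1 to 0.69 for Cdkn1b. On the dimmer Cdkn1b probe set, at 7.63 and 8.09 in knockout against 6.64 and 7.28 in wild type, it was 0.90 ± 0.33 (adjusted p = 0.30 over all probe sets). Lmnb1 lay below both, as did 18.9% of all genes, at -0.33 ± 0.26 (adjusted p = 0.57), and its dimmer probe set, at 6.96 and 7.25 in knockout against 7.49 and 8.22 in wild type, had -0.75 ± 0.33 (adjusted p = 0.39 over all probe sets). Cdkn2b, Cdkn2c and Lmna overlapped, at 0.44 ± 0.32, 0.18 ± 0.25 and -0.02 ± 0.21. Marker lists also differed here. The mean log2 signal of striated muscle markers was 8.34 to 8.78 in knockout and 4.67 to 4.75 in wild type, that of macrophage markers 7.39 to 7.97 and 8.68 to 8.74, and that of adipocyte markers 7.09 to 8.18 and 6.12 to 6.53. Of these lists 1 gene passed, the adipocyte marker Car3, higher in knockout by 5.31 ± 0.25 (adjusted p = 2.8e-05), and 11 of 14 macrophage markers had an unadjusted limma p under 0.05. Their part in these differences was not tested.

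The irradiation effects did not differ between genotypes past the threshold for any of the 8 genes, where 0.207% of all genes did (0.175% higher and 0.0318% lower in knockout) and 0.091% of all probe sets, and 0 of 8 had an unadjusted limma p under 0.05, against 10.4% of all genes. The differences of the effects, knockout minus wild type, were lowest for Cdkn2b at -0.87 ± 0.41, Cdkn1c at -0.76 ± 0.40 and Glb1 at -0.64 ± 0.33 (adjusted p = 0.50, 0.55 and 0.55). The sex pattern also differed between these groups, and its part was not tested.

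Cdkn1a is the CDK inhibitor that p53 induces, and it is not among the 9 genes. Its log2 signal was 11.92, 11.66 and 11.86 in irradiated knockout, against 12.29 and 12.44 in unirradiated knockout. It was 11.88, 11.87 and 11.65 in irradiated wild type, against 13.42 and 13.27 in unirradiated wild type. Irradiated arrays were lower than unirradiated ones in both genotypes, and unirradiated knockout was lower than unirradiated wild type. Between unirradiated groups Cdkn1a was lower in knockout by 0.99 ± 0.15 (limma adjusted p = 0.015), and the values of the irradiated groups overlapped (0.02 ± 0.12, adjusted p = 1.0). That call was lost without replicate 1 or 2 of unirradiated wild type (adjusted p = 0.058 and 0.052) and without replicate 1 or 2 of unirradiated knockout (0.14 and 0.065). In knockout Cdkn1a fell by 0.55 ± 0.14 after irradiation (adjusted p = 0.018), a call that was lost without replicate 1 or 2 of unirradiated knockout (0.063 and 0.12). Both of these calls were also lost with a replicate block (limma adjusted p = 0.059 between unirradiated groups and 0.06 in knockout). The same held with male-pattern arrays only (0.056 and 0.076). With only the groups compared, the call between unirradiated groups was lost as well (0.053). In wild type the Cdkn1a difference was -1.55 ± 0.14 (limma adjusted p = 3e-04), and the alternatives gave -1.62 to -1.42. The genotype difference of the Cdkn1a effect was 1.00 ± 0.19 (adjusted p = 0.11). The INK4 gene Cdkn2d rose in wild type by 1.10 ± 0.25 (adjusted p = 0.014). It did not pass in knockout, but the genotype difference of its effect was -0.49 ± 0.36 (limma adjusted p = 0.67). The call in wild type alone thus does not show a difference between genotypes.

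The counts of the related lists are to be read against the 23.5% of all genes that passed in knockout and the 24.1% in wild type. Of 12 G1 cyclins, kinases and their cofactors, 2 rose in knockout, Cks1b by 0.97 ± 0.17 and the cyclin gene Ccnd1 by 0.82 ± 0.17, and 1 rose in wild type, the INK4 target Cdk6 by 1.24 ± 0.19. Of 14 RB relatives and E2F factors, E2f2 and Tfdp1 rose and E2f3 and E2f5 fell in knockout, and E2f3 fell in wild type by 0.58 ± 0.17. Of 24 S and M phase genes tested, Rrm2 and Rrm1, subunits of ribonucleotide reductase, rose in knockout by 1.10 ± 0.23 and 0.74 ± 0.24 (limma adjusted p = 0.0089 and just under 0.05), and in wild type 0 passed and 0 had an unadjusted p under 0.05. The medians of the S and M phase list were 0.21 in both genotypes. Among 12 regulators of the INK4 locus tested, the activators Ets1 and Ets2 went opposite ways, Ets1 by 1.39 ± 0.37 and Ets2 by -0.50 ± 0.13 in knockout, and Ets1 by 1.97 ± 0.37 and Ets2 by -0.99 ± 0.13 in wild type. The Polycomb gene Bmi1, a repressor of Cdkn2a, rose in wild type by 0.80 ± 0.22.

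Of 17 other lamina and nuclear envelope genes, 1 rose and 4 fell in knockout (23.5% of all genes passed), and 1 rose and 1 fell in wild type (24.1% of all genes). The B-type lamin gene Lmnb2 fell in knockout by 1.91 ± 0.46 (limma adjusted p = 0.017), Sun1 of the inner nuclear membrane by 0.55 ± 0.14 and the nesprin gene Syne2 by 1.09 ± 0.17. In wild type Syne2 fell by 0.63 ± 0.17, and the nesprin gene Syne1, also abundant in muscle, rose by 0.85 ± 0.19. Of 20 lysosomal genes tested, 3 rose and 2 fell in knockout, close to the 23.5% of all genes, and 6 rose and 1 fell in wild type, where 24.1% of all genes passed. Lamp2, of the lysosomal membrane, rose by 1.12 ± 0.15 in knockout and by 0.72 ± 0.15 in wild type, and the protease gene Ctsd by 0.47 and 0.91. The sialidase gene Neu1, whose product forms a complex with β-galactosidase, fell by 1.00 ± 0.27 in knockout and by 1.31 in wild type.

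The list of senescence-associated secreted factors, most of which leukocytes and stressed stroma also make, had far more members past the threshold. Of 21 tested, 19 rose and 0 fell in each genotype, with median log2 differences of 2.91 in knockout and 3.16 in wild type. The chemokine gene Ccl8 rose by 4.76 ± 0.13 in knockout and by 3.0 ± 0.13 in wild type, and the IGF-binding protein gene Igfbp7 by 1.36 ± 0.18 and 2.22 ± 0.18. This list was chosen with earlier results of these data known, so that its count is a description. Of its 22 genes measured, 8 to 10 lay above the array median on unirradiated knockout and 9 to 11 on unirradiated wild-type arrays. On irradiated arrays 18 to 20 and 20 to 21 did. Genes could thus pass the filter through irradiated arrays alone, which favours a rise in the count.

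**Figure D4:**
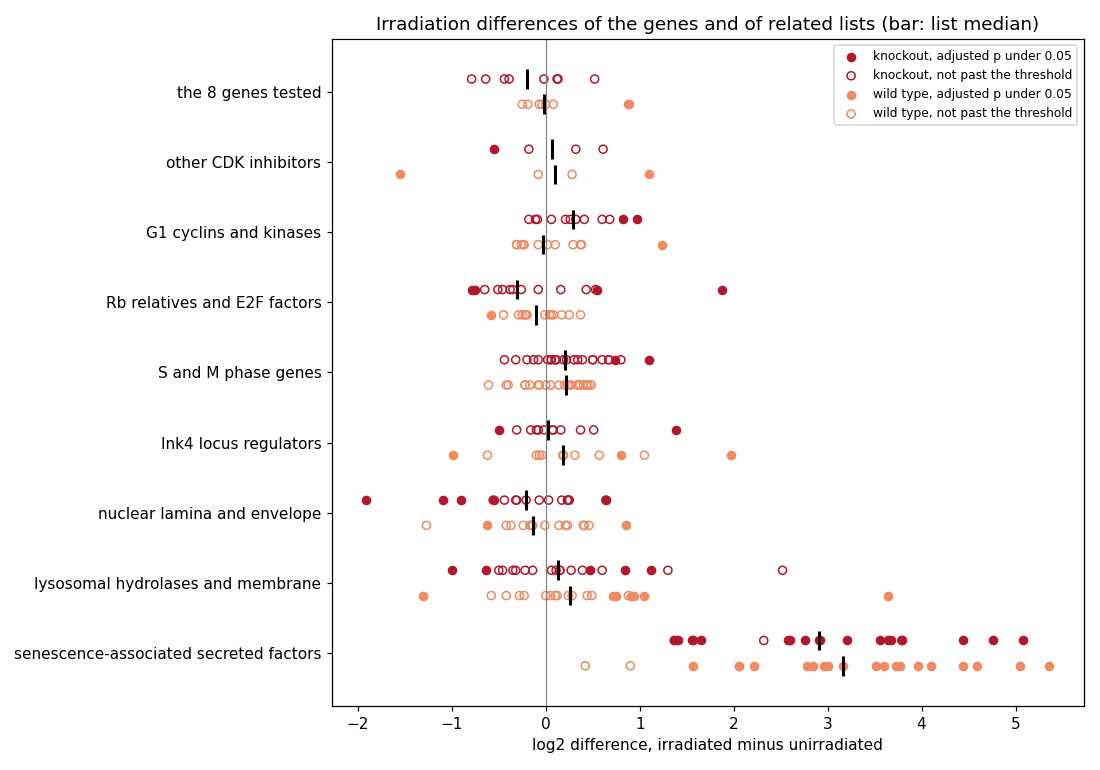
Log2 difference between irradiated and unirradiated arrays (horizontal axis) of each gene in the 8 genes tested and in 8 related lists, knockout above wild type; filled points passed the threshold and bars are list medians. The medians of the secreted factors lie at 2.91 and 3.16, and those of the 8 genes at -0.20 and -0.02.

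The marker signals of several cell types differed between the same groups. In bulk samples fewer cells of a type and less RNA per cell cannot be told apart. The counts below stand beside 14% of all genes higher and 9.5% lower in knockout, and 15.8% and 8.34% in wild type. Macrophage markers had a list mean of 10.37 to 11.06 in irradiated and 7.39 to 7.97 in unirradiated knockout, and 11.22 to 11.42 in irradiated and 8.68 to 8.74 in unirradiated wild type, with 13 of 14 higher in each genotype. Squamous epithelium markers had 10.93 to 12.83 against 5.95 to 6.19 in knockout (12 of 13 higher). In wild type they had 10.17 to 12.34 against 5.52 to 6.69 (9 of 13 higher). Above the array median lay 3 of 13 in unirradiated knockout and 4 to 5 in unirradiated wild type. After irradiation 13 lay above it in knockout and 12 to 13 in wild type. Such epithelium lines the anal border, and where these cells lay was not tested. Fibroblast markers had 11.33 to 11.81 against 9.29 to 9.53 and 11.54 to 11.98 against 9.34 to 9.61 (11 and 12 of 12 higher). Absorptive colonocyte markers had 10.83 to 12.03 against 12.51 to 12.95 and 10.95 to 11.33 against 12.89 to 13.11 (7 and 9 of 13 lower), with at least 12 of 13 above the array median on every array. Striated muscle markers had 10.32 to 12.26 against 8.34 to 8.78 and 5.64 to 11.62 against 4.67 to 4.75 (2 and 6 of 12 higher), and adipocyte markers 8.66 to 11.22 against 7.09 to 8.18 and 10.41 to 11.38 against 6.12 to 6.53 (5 of 8 higher in each, and 1 lower in knockout). Endothelial markers (9 of 10 higher in each genotype) and T and NK cell markers (7 of 8 and 6 of 8) also rose. Of the 10 T and NK cell markers measured, 2 lay above the array median in unirradiated knockout and 2 to 3 in unirradiated wild type. On irradiated arrays 5 to 8 and 7 to 8 did. Genes of these lists could thus pass the filter through the irradiated arrays alone. Smooth muscle markers had 0 of 10 past the threshold in either genotype, and 0 of 10 with an unadjusted limma p under 0.05. The part of these shifts in the rise of Cdkn2c and Cdkn1c was not tested.

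As a description over the 10 arrays, which share the group differences, the genes most like Cdkn2c in pattern were Ift81 and Irak1bp1 (Pearson r = 0.965 and 0.962), and those most like Cdkn1c were Tfpi2 and Lrat (0.931 and 0.923). For Cdkn2b they were Helb and Tbc1d17 (0.913 and 0.909), and for Cdkn1b Rgn and Ppcs (0.903 and 0.874). For Lmnb1 they were Casp2 and Hnrnph1 (0.897 and 0.893), for Lmna Npc1 and Nsl1 (0.870 and 0.854), for Glb1 Med23 and Sos1 (0.921 and 0.919), and for Rb1 Nat8f5 and Fam3a (0.959 and 0.947). Among the 9 genes themselves the highest r was 0.74, between Cdkn2c and Cdkn1c, followed by 0.68 between Glb1 and Rb1, and the lowest was -0.75, between Cdkn1b and Lmnb1.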

How the data were processed

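RNA of the distal colorectum of 10 mice was hybridised to 1 Affymetrix array each. The authors deposited 1 table of log2 signals, made with MAS5 per the submitters' processing notes. Raised to the power of 2, the values of each array have a trimmed mean of 500, and the values were used as deposited. Detection calls were not used here. Of 45101 probe sets, 64 were controls, 34945 named 1 gene, 932 named several and 9160 none in the platform annotation. Symbols were updated by gene ID for 34741.

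Samples were grouped by genotype and irradiation from the labels. The probe set with the highest mean stood for each of 18193 genes, and the 12568 genes whose signal exceeded the median of 2 or more arrays were tested. limma 3.58.1 (R 4.3.3) fitted a mean for each group to the 10 arrays together (intensity trend, residual degrees of freedom 6), for 5 comparisons, each with Benjamini-Hochberg adjustment over all genes. A fit over 45037 probe sets gave values for each probe set of the 9 genes and for Cdkn2a. P-values and SEs rest on the spread between mice within groups, pooled over all groups in a fit and moderated by limma. They do not measure the spread of the compared groups alone. The script was tested on simulated data.

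The 9 genes and the related lists were chosen with earlier results of these data known. Of related lists, up to 4 genes past the threshold, by lowest p, were named for each comparison. Deviations of same-numbered replicates of different groups correlated at -0.2 to 0.16. With so few arrays a group, these values cannot decide whether the numbers pair the mice. Alternatives were quantile normalization, a pseudocount of 16, no filter, averaging the probe sets of a gene, a replicate block, only the groups compared, male-pattern arrays only, all probe sets and leaving out each array.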

Additional observations from a re-analysis of the deposited data

Results flagged for a closer look

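None of the 9 genes had an irradiation effect that differed between genotypes past the threshold. Among the genes of the related and marker lists, Car3 and Ccl8 did. Ccl8, a chemokine gene of the secreted factor list, rose more in knockout than in wild type, by 4.76 ± 0.13 against 3.0 ± 0.13, and the difference of the effects was 1.76 ± 0.18 by limma's interaction term (adjusted p = 0.0076). In unirradiated mice the knockout minus wild type difference of Ccl8 was -1.95 ± 0.14 (adjusted p = 3.3e-04), and after irradiation the difference was -0.19 ± 0.12. The interaction passed in 14 of 15 alternatives, with values of 1.66 to 1.83, and did not with a replicate block (adjusted p = 0.067). Car3, a carbonic anhydrase gene of the adipocyte marker list, rose less in knockout than in wild type, by 2.15 ± 0.23 against 7.47 ± 0.23 log2 units, and the difference of the effects was -5.32 ± 0.33 (adjusted p = 3e-04). It passed in 14 of 15 alternatives, with values of -5.51 to -3.70, and did not with the mean of its probe sets (-3.70, adjusted p = 0.33). Both genes stand here because a test of the difference itself passed, and the cause was not tested.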

How the results depend on the processing

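With 2 or 3 arrays a group, calls of single genes moved with the setting. In wild type 2 of the 8 genes tested passed. This became 1 with quantile normalization, no filter, only the groups compared or all probe sets, 0 with a replicate block, and 0 to 2 with 1 array left out. In knockout 0 passed, against 1 with only the groups compared and 0 to 1 with 1 array left out. The Cdkn2c call held in 12 of 16 alternatives (0.81 to 0.93, adjusted p 0.0095 to 0.12) and the Cdkn1c call in 5 of 16 (0.56 to 1.05, adjusted p 0.039 to 0.22). The labels do not say whether the replicate numbers pair the mice. With the replicate block Cdkn2c had 0.89 (adjusted p = 0.059) and Cdkn1c 0.82 (0.12). The cause of these changes was not tested, except that leaving out arrays or fitting only the groups compared lowers the number of arrays.

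Over all genes, the block left 1995 calls for irradiation in wild type, 70 for knockout against wild type without irradiation and 3 for the genotype difference of the irradiation effect, against 3028, 154 and 26. Male-pattern arrays alone left 1352 for irradiation in knockout, against 2957. With 1 array left out, the counts ranged from 1189 to 3596 for irradiation in knockout, 1323 to 3469 for irradiation in wild type, 0 to 3 for knockout against wild type after irradiation, 41 to 255 without irradiation and 14 to 35 for the genotype difference. Without irradiation 34.4% of calls were higher in knockout, and 23.3% with quantile normalization.

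Signs turned only for differences that had not passed. In wild type, Glb1 was -0.08 with quantile normalization and -0.02 with the block, and Cdkn1b was 0.23 with the mean of its probe sets. In knockout, Cdkn1b was 0.00 with quantile normalization and Cdkn2a -0.49 with the block. Between genotypes, Lmna without irradiation was 0.07 with quantile normalization and 0.06 with the mean of probe sets, which also gave Rb1 after irradiation -0.20 and the Cdkn1b effect difference -0.41. With 1 array left out, the knockout irradiation effect ranged from -0.07 to 0.03 for Cdkn1b, -0.21 to 0.47 for Cdkn1c, -1.22 to 1.81 for Cdkn2a and -0.04 to 0.29 for Lmnb1. The wild-type effect ranged from -0.57 to 0.45 for Cdkn1b, -0.43 to 0.59 for Cdkn2b, -0.23 to 0.23 for Glb1, -0.50 to 0.00 for Lmna and -0.17 to 0.20 for Lmnb1. Knockout minus wild type ranged from -0.01 to 1.01 for Cdkn1b after irradiation, and without it from -2.26 to 0.77 for Cdkn2a, -0.07 to 0.95 for Cdkn2b, -0.18 to 0.54 for Cdkn2c and -0.29 to 0.24 for Lmna. The effect difference ranged from -0.47 to 0.55 for Cdkn1b, -0.70 to 0.01 for Cdkn2c, -0.45 to 0.08 for Lmna and -0.07 to 0.33 for Lmnb1. Low signal limits Cdkn2a, which lay below the array median on every array.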
